A study of Mus musculus with 4 samples.

Results

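Cytosolic ribosomal proteins are the proteins that, together with ribosomal RNA, form the large and the small subunit of the ribosomes outside mitochondria. Their genes were taken from the array's annotation by symbol (Rpl, Rps and Rplp followed by a number, and Rpsa, without the Rps6 kinases). A gene counted as measured where a probe set, the group of probes that reads a transcript on the array, named that gene alone. Of 77 such symbols on the array, 49 were measured in this way, out of 18193 measured genes in all. Where a gene had several such probe sets, the brightest on average was used.

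The study compared haematopoietic stem cells (HSCs) that differ in their level of N-myc, a transcription factor of the Myc family. Both groups came from bone marrow of transgenic mice with an N-myc/mCherry fusion gene and were sorted as Lin-Sca+Kit+CD48-CD150+ cells, N-myc high or N-myc low by the mCherry signal. Each group held a sample of mouse 1 and a sample of mouse 2, neither cultured nor treated, and 5 ng of total RNA per sample was amplified before hybridisation. The sources used here do not give strain, age or sex, and the p-values measure only the spread between these samples. The array values are log2 intensities after RMA, so a difference of 1 is a doubling, and a level of 8 parted bright from dim genes.

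Ribosomes carry most of their core proteins in a largely fixed ratio, and the mRNAs of these proteins belong to the most abundant in most cells. Many of these mRNAs start with a run of pyrimidines (a terminal oligopyrimidine tract), through which growth signals control their translation. Myc proteins are known as activators of ribosome production in many cell types, and blood stem cells are known for a low rate of protein synthesis. Inherited loss of a copy of several of these genes causes Diamond-Blackfan anaemia, a failure of red cell formation.

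The start sites of the members were read from RefSeq promoters of assembly GRCm38.p6, which hold 250 bases before and 50 bases after each gene's start. Of the 49 genes, 43 matched, with 51 promoters. A run of at least 6 letters C or T that holds a C and lies within 5 bases of the start was found in 23 of the 51 promoters (45.1%), against 19.98% of all 32851 promoters in the table. The following 30-base stretches, shown because they are the start sites of members whose values are given further on, carry that run in capitals.

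Rpl7a, chr2:26910792-26910821, plus strand: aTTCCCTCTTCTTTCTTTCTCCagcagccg
Rpl35, chr2:39005117-39005146, minus strand: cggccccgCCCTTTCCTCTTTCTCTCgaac
Rpl14, chr9:120571502-120571531, plus strand: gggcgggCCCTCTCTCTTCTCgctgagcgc
Rps10, chr17:27635230-27635259, minus strand: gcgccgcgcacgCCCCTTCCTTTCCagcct
Rplp2, chr7:141447636-141447665, plus strand: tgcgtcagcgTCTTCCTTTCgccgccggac
Rps6, chr4:86857353-86857382, minus strand: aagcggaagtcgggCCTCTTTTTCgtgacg
Rpl22l1, chr3:28805493-28805522, plus strand: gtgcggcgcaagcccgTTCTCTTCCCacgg

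The hexamer CACGTG, the E-box that Myc and its partner Max are known to bind, reads the same on both strands. It was present in 5 member promoters (9.80%) of 4 genes and in 7.15% of all promoters. The 4 genes follow with the hexamer in capitals, and Rpl19 has 2 promoter entries that hold the same hexamer.

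Rpl14, chr9:120571337-120571366, plus strand: ccaagctcactgCACGTGtctgaggagaag
Rpl19, chr11:98026679-98026708, plus strand: tacccagaggacCACGTGaccaaacgccct
Rps19, chr7:24884781-24884810, plus strand: tggagccgcggcCACGTGcgagcggcaggc
Rpl13a, chr7:45128928-45128957, minus strand: cgctccgaaaccCACGTGacatcccgcccc

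The hexamer and the pyrimidine run are letters in these windows only, and whether any factor binds there was not measured.

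The arrays were first set beside their labels. Mycn, which encodes N-myc, stood at 10.48 and 10.39 in N-myc high, against 9.44 and 9.65 in N-myc low, in the order of the sort. Of 8 HSC markers, 6 were measured, with means per gene from 7.39 (Fgd5) to 10.29 (Kit). Their mean per array was 9.28 and 9.58 in N-myc high, against 8.69 and 8.62 in N-myc low. Of the 6, 5 were higher in N-myc high, and Kit was lower, with 10.17 and 10.29 against 10.18 and 10.53. The groups of Kit and Slamf1 overlapped. All 5 granulocyte markers were above 8 on each array, with a mean per array of 11.44 and 11.09 in N-myc high, against 11.67 and 11.68 in N-myc low, and S100a9 was the brightest at 13.59. The means of other marker lists per array ran from 2.68 to 2.89 for T and NK cells (4 of 4 measured), from 4.84 to 5.83 for macrophages (5 of 5), from 5.15 to 6.35 for erythroid cells (3 of 5), from 4.25 to 5.75 for B cells (3 of 4) and from 8.36 to 9.28 for multipotent progenitors (3 of 3). Some genes of these lists differed more between the fractions than the means. Cd48, whose protein the sort selected against, gave 7.42 and 7.11 in N-myc high, against 9.89 and 9.07 in N-myc low. Flt3, of the same list, went the other way, with 8.18 and 8.28 against 7.49 and 6.56. C1qb gave 8.24 and 8.48 against 5.76 and 5.64, with 4 macrophage markers higher and 1 lower in N-myc high. All 3 erythroid markers were lower, Klf1 with 7.98 and 7.47 against 8.57 and 8.73. The part of other cell types in the ribosomal values was not tested. Both arrays of mouse 1 held Xist, the RNA of the inactive X chromosome (11.38 and 11.10), together with the Y-linked Eif2s3y (8.53 and 8.43), and whether more than 1 animal contributed to them was not tested.

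Ribosomal protein transcripts were among the brightest signals of these HSCs, and after RMA they were nearly equal in N-myc high and N-myc low. RMA equalises the arrays' distributions, so a shift shared by the brightest genes can be reduced, and its part here was not tested. Of the 49 genes, 42 had a mean of 8 or more, and 36 of these lay between 12.42 (Rps2) and 14.20 (Rpl41). Rpl41 had the highest mean of all 18193 genes. The brightest probe set of each array, with control and unnamed probe sets counted, reached 14.42 to 14.56. In the limma fit, 0 of 49 genes passed a Benjamini-Hochberg adjusted p under 0.05, as did 0% of all genes. At an unadjusted p under 0.05 the count of members was also 0 in both directions, where 3.53% of all genes were higher and 2.78% lower in N-myc high (2.84% and 2.35% of those with a mean of 8 or more). Both N-myc high arrays were above both N-myc low arrays for 8 of the 49 (all genes: 15.6%) and below them for 1 (all genes: 20.8%). The lowest member p was that of Rps6, at 0.0853 and 0.793 adjusted. With 2 arrays against 2, an exact permutation test of a single gene cannot go below 0.333.

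**Figure D1:**
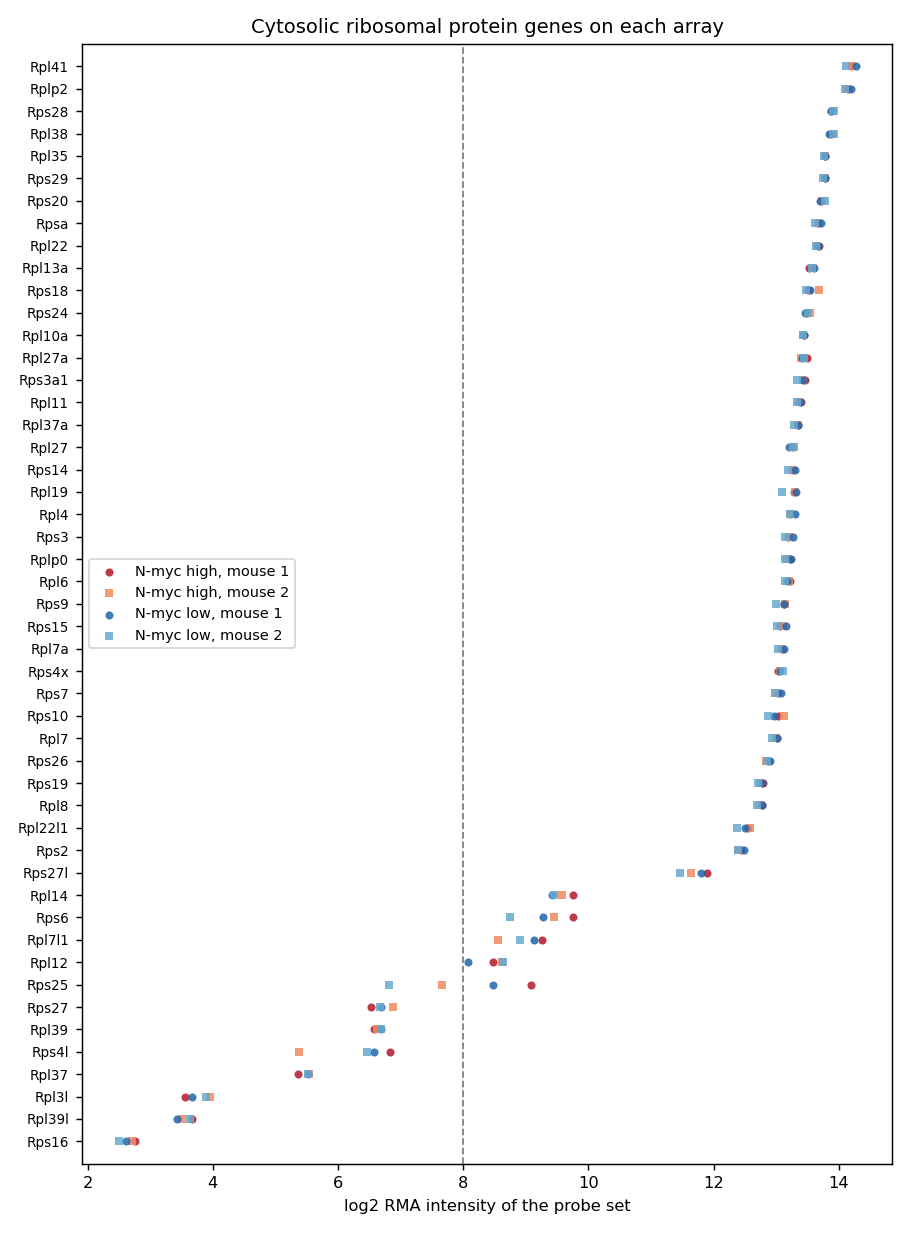
Log2 RMA intensity (horizontal axis) of the 49 ribosomal protein genes (vertical axis), with 1 point for each of the 4 arrays, circles for mouse 1 and squares for mouse 2, red shades for N-myc high and blue shades for N-myc low; the dashed line marks 8. The points of the 36 genes above 12 nearly coincide, and those of Rps25, Rps6 and Rps4l spread over more of the axis.

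For the 42 genes with a mean of 8 or more, the median difference between N-myc high and N-myc low was 0.01 on the log2 scale, with 0.01 in mouse 1 and 0.04 in mouse 2. Differences ran from -0.11 (Rpl7l1) to 0.74 (Rps25), 30 were above 0 and 12 below. All 4858 genes of that level had a median difference of -0.00094. Both N-myc high arrays were above both N-myc low arrays for 7 of the 42 genes (16.7%), against 18.8% of all genes of that level, and the reverse held for 0 of the 42, against 18.7%. The 7 genes were Rps6, Rpl14, Rps10, Rpl22l1, Rps9, Rpl6 and Rpl27.

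The 7 genes with a mean below 8 were Rps27 (6.69), Rpl39 (6.64), Rps4l (6.31), Rpl37 (5.48), Rpl3l (3.77), Rpl39l (3.56) and Rps16 (2.64). Nearest to the limit on its other side were Rps25 (8.01) and Rpl12 (8.45). The dim genes had a median difference of -0.03, from -0.41 (Rps4l) to 0.18 (Rps16), beside -0.04 for all 13335 genes of that level. None of the 7 had an unadjusted limma p under 0.05, where 3.78% of all such genes were higher and 2.94% lower. Groups did not overlap for Rps16, higher in N-myc high, and for Rpl39, lower, which is 1 gene each way, beside 14.4% and 21.6% of all genes below 8.

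The 36 brightest members showed little spread. Their absolute difference had a median of 0.02 and was under 0.1 for 34 of 36 (94.4%), the exceptions being Rps10 and Rpl22l1. The spread within a group, taken as the mean of both group SDs, had a median of 0.04 and ran from 0.0088 (Rpl35) to 0.0864 (Rps18). The other 91 genes with a mean of 12 or more had a median absolute difference of 0.08, a median spread of 0.08 and 56 differences under 0.1 (61.5%). Those genes were dimmer, with a median level of 12.40 against 13.26, and values near the top of an array's range can be compressed, so the part of level in the smaller spread was not tested.

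**Figure D2:**
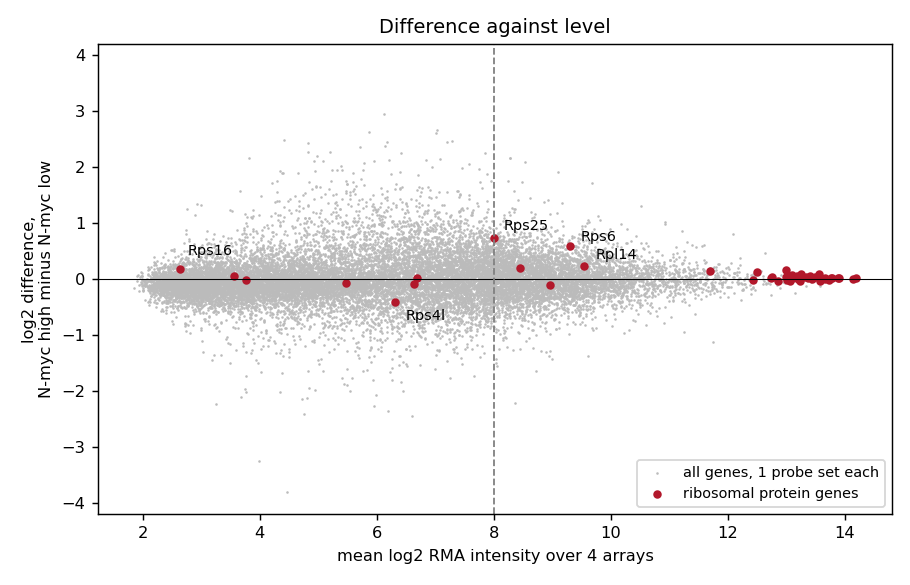
Log2 difference, N-myc high minus N-myc low (vertical axis), against the mean log2 RMA intensity over the 4 arrays (horizontal axis) for all 18193 genes in grey and the 49 ribosomal protein genes in red; the dashed line marks a level of 8. The 36 ribosomal protein genes above 12 lie between -0.04 and 0.17, and Rps25, Rps6, Rpl14, Rps16 and Rps4l, named in the plot, are dimmer.

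What the test can resolve for these genes is set by a standard error that limma shares across all genes. The median SE of the 36 genes was 0.174, larger than their own spread, so that the interval of Rplp0, for example, ran from -0.45 to 0.48. The largest absolute difference of the 36 genes, 0.166, was below their smallest SE, 0.172. Their count of 0 at an unadjusted limma p under 0.05 was thus fixed by that SE. With an intensity trend in the variance prior, an alternative in which bright genes borrow from bright genes, the median SE was 0.0506 and the interval of Rplp0 ran from -0.12 to 0.14.

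Among large-subunit proteins, the stalk that recruits translation factors was represented by Rplp0 and Rplp2. Rplp0, the base of the stalk, gave 13.22 and 13.18 in N-myc high, against 13.24 and 13.14 in N-myc low, so that the groups overlapped, with a difference of 0.01 (SE 0.175, limma adjusted p = 0.998). Rplp2 gave 14.14 and 14.13 against 14.19 and 14.10, a difference of -0.0064. Rpl11, which with Rpl5 carries a small ribosomal RNA into the subunit and binds Mdm2 when ribosome assembly fails, gave 13.39 and 13.36 against 13.38 and 13.34. Its difference was 0.02, and its groups overlapped too.

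The polypeptide exit tunnel and its rim were read through 5 of 9 listed proteins, with a median difference of 0.01 and 0 passing the test. Rpl4, which lines the tunnel, had a difference of -0.04, Rpl35 of 0.01 and Rpl22, a protein needed for normal T cell development, of 0.02. Rpl19 gave 13.29 and 13.30 in N-myc high, against 13.31 and 13.10 in N-myc low. Here 3 arrays were nearly equal and the N-myc low array of mouse 2 was lower, which gave a difference of 0.09 (SE 0.186). Rpl38, known for its part in the translation of Hox mRNAs, differed by 0.02, and Rpl10a and Rpl7a by -0.0072 and 0.01. Over the 20 core large-subunit proteins with a mean of 8 or more, the median difference was 0.02, and 18 differed by less than 0.1.

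In the small subunit, 19 core proteins with a mean of 8 or more had a median difference of 0.01, and 16 differed by less than 0.1. The head of the subunit, where the mRNA enters and transfer RNAs pass, was read through 10 of 14 listed proteins, with a median of 0.02 and 0 passing the test. Rps10, a head protein near the mRNA entry, gave 13.03 and 13.13 in N-myc high, against 12.96 and 12.86 in N-myc low. Both N-myc high arrays were above both N-myc low arrays, by 0.17 (SE 0.178, limma adjusted p = 0.884). It was the only member with an unadjusted p under 0.05 when limma used an intensity trend (0.0438, adjusted 0.769), and its difference was 0.12 without the N-myc low array of mouse 2. Of its 6 probe sets, the 5 with a mean above 12 differed by 0.09 to 0.17, and the dim sixth, at 6.14, by -0.82.

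Rps6, the substrate of the S6 kinases, had the smallest p. It gave 9.75 and 9.45 in N-myc high, against 9.28 and 8.74 in N-myc low, with the N-myc low array of mouse 2 lowest and no overlap. The difference was 0.59 (SE 0.268), with 0.47 in mouse 1 and 0.71 in mouse 2, and it was 0.32 without the N-myc low array of mouse 2. A dimmer probe set that names Rps6 alone, at 4.10, differed by -0.28, with 0.25 in mouse 1 and -0.81 in mouse 2. Rps25, used by some viral and cellular mRNAs to start translation internally, gave 9.09 and 7.67 against 8.47 and 6.81. The groups overlapped, and in both fractions mouse 1 was above mouse 2. Its difference was 0.74 (SE 0.746), with 0.62 in mouse 1 and 0.85 in mouse 2. It was -0.09 without that same array, a value that sets both mice in N-myc high against mouse 1 alone. With the mouse number as a replicate block, the SE of Rps25 was 0.195. Its unadjusted limma p was then 0.0279, the only member p under 0.05 in that fit. The adjusted p was 0.781. Rpl14, of the large subunit, gave 9.76 and 9.58 against 9.43 and 9.45 without overlap, a difference of 0.23 (SE 0.181).

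These 3 genes had a second reading. The array holds 215 probe sets that name a ribosomal protein gene, of which 105 name it alone and 110 share it with other names, and 104 of the latter share it with a pseudogene or a predicted gene. Ribosomal protein genes have many processed pseudogenes of near-identical sequence, so a shared probe set cannot tell the gene from its copies. For 8 members the brightest shared probe set lay between 13.23 and 13.95, while the probe set with 1 name lay lower, between 2.64 and 9.55. The 8 were Rps6, Rps25, Rpl14, Rpl12, Rps16, Rpl37, Rps27 and Rpl39.

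On the brightest shared probe set, Rps6 gave 13.94 and 13.91 in N-myc high, against 13.94 and 13.87 in N-myc low, a difference of 0.02 in place of 0.59. Rps25 gave 13.57 and 13.56 against 13.63 and 13.56, a difference of -0.03 in place of 0.74. Rpl14 changed from 0.23 to -0.04 and Rps16 from 0.18 to 0.01. Over the 8 genes the shared differences lay between -0.04 and 0.04. The larger differences of Rps6, Rps25 and Rpl14 were thus not seen on their brightest shared probe sets. These probe sets lay near the top of the arrays' range, where values can be compressed, and the part of level was not tested. Rps6 also had 4 shared probe sets with means from 8.85 to 9.11, near the level of its own, and these differed by -0.18 to 0.09. Which of both readings follows the mature mRNA was not tested.

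**Figure D3:**
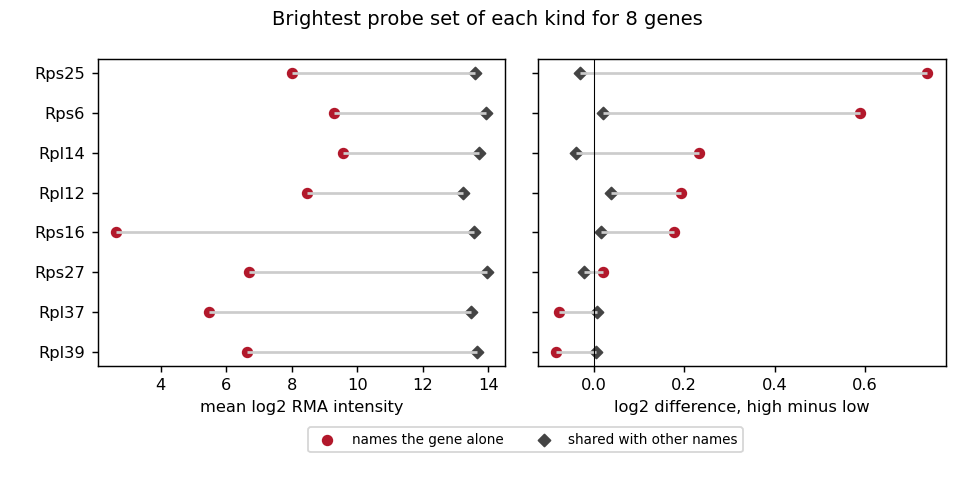
For 8 ribosomal protein genes (vertical axis), the left panel shows the mean log2 RMA intensity and the right panel the log2 difference, N-myc high minus N-myc low, of the brightest probe set that names the gene alone (red circles) and of the brightest one shared with other names (dark diamonds). All shared probe sets lie above 13 in level and between -0.04 and 0.04 in difference, and Rps25 and Rps6 lie furthest from them in difference.

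The same held across probe sets. The 144 probe sets with a mean of 12 or more differed by -0.13 to 0.19, and 127 of them (88.2%) by less than 0.1. The 42 with a mean below 8 differed by -0.82 to 1.76, and 16 of them (38.1%) by less than 0.1. Of 24 members with several probe sets of their own, 13 had differences of opposite sign.

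Rps18, a head protein at the contact of both subunits, had 6 probe sets and the widest range, and it was chosen after its values were seen. Its 3 bright probe sets differed by 0.02 to 0.11. On a dim one it gave 6.04 and 5.996 in N-myc high, against 4.25 and 4.27 in N-myc low, a difference of 1.76 with no overlap, and on another 5.93 and 5.66 against 5.02 and 3.73. The mean over its 6 probe sets differed by 0.61, with an unadjusted limma p of 0.0182 and an adjusted p of 0.731. Rpl22 had a similar pair of readings, 0.02 on a probe set at 13.66 and 0.58 on a probe set at 8.86.

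The 28 symbols that had only shared probe sets, Rpl32l and Rpl32 on the same one, had levels from 12.74 (Rpl24) to 13.94 (Rpl23a) and a median difference of 0.01. For 25 of them the difference was under 0.1. Rplp1, the third stalk protein, gave 13.04 and 13.03 in N-myc high, against 12.93 and 12.91 in N-myc low, a difference of 0.11 without overlap. Rpl34 differed by 0.12 and Rpl29 by -0.13, the extremes of the 28, and Rpl5, the partner of Rpl11, by 0.02. When shared probe sets entered the fit, 0 of 77 symbols passed the adjusted threshold.

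Of 19 genes listed for Diamond-Blackfan anaemia, 11 were measured, with a median difference of 0.02 and 0 passing the test. The largest difference of the 11 was that of Rps10, given above, at 0.17 with no overlap. Rps19, the gene most often mutated in that disease, gave 12.79 and 12.75 in N-myc high, against 12.78 and 12.71 in N-myc low, a difference of 0.03. Rps14, whose loss of a copy marks a myelodysplastic syndrome with anaemia, differed by 0.01. Rps26 and Rps7 differed by -0.03 and -0.02, and Rps24 and Rpl27 by 0.03 and 0.05. All of these differences were smaller than their SE.

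Paralogs, gene copies related to the gene of a core protein, were measured for 6 of 7 listed genes. Rpl22l1, the paralog of Rpl22, gave 12.55 and 12.59 in N-myc high, against 12.50 and 12.37 in N-myc low. The groups did not overlap, and the difference of 0.13 (SE 0.178) fell short of the test at an adjusted limma p of 0.916 and was 0.06 without the N-myc low array of mouse 2. Rps27l, a paralog of Rps27 induced by p53, gave 11.89 and 11.63 against 11.79 and 11.46, and in both fractions mouse 1 was above mouse 2.

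Rpl7l1, a paralog of Rpl7, differed by -0.11 on its brightest probe set and by 0.29 and 0.44 on its others. Rps4l, which RefSeq lists as a transcribed pseudogene, gave 6.83 and 5.38 in N-myc high, against 6.57 and 6.46 in N-myc low, so that its difference of -0.41 came with 1 low array. Without the N-myc high array of mouse 1 it was -1.14 (limma adjusted p = 0.957), and without that of mouse 2 it was 0.32. The muscle paralog Rpl3l and the testis paralog Rpl39l were dim, at 3.77 and 3.56.

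A shift by array accompanied the small positive median of the bright members. The N-myc low array of mouse 2 was the lowest of the 4 for 25 of the 36 brightest members (69.4%), against 20 of the 91 other genes with a mean of 12 or more (21.98%). The median deviation of the 36 genes from their own mean was -0.04 on that array, 0.02 on the N-myc low array of mouse 1, and 0.0081 and 0.0061 on the N-myc high arrays. Without the N-myc low array of mouse 2, the difference was above 0 for 14 of the 36 and below for 22, with a median of -0.0056. The hybridisation controls bioB and bioC, added in fixed amounts, averaged 11.51 on that array and 10.62 to 10.84 on the others, and whether this bears on the ribosomal values was not tested.

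**Figure D4:**
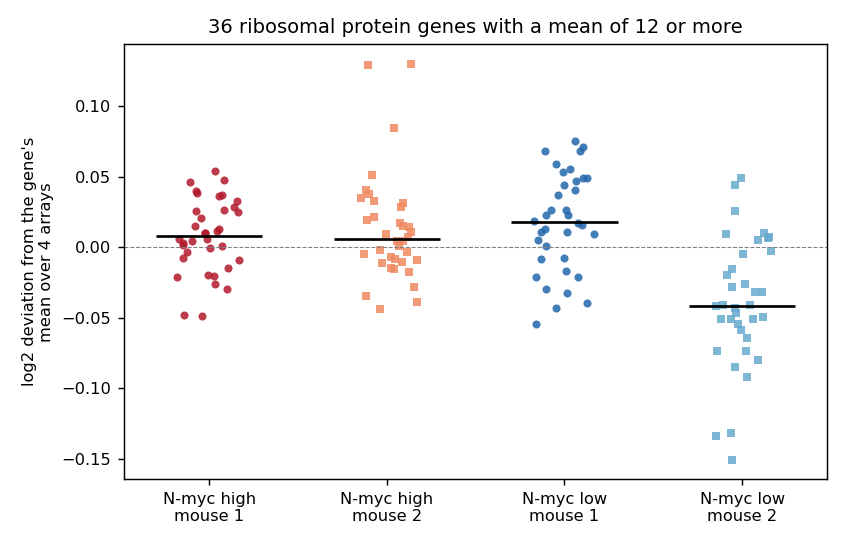
Log2 deviation of each of 36 ribosomal protein genes from its mean over the 4 arrays (vertical axis) by array (horizontal axis), with 1 point per gene and a bar at the median. The medians of 3 arrays lie between 0.0061 and 0.02, and that of the N-myc low array of mouse 2 lies at -0.04.

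Members with a promoter feature were set beside those without it. The 4 genes with CACGTG had differences of -0.03 (Rpl13a), 0.03 (Rps19), 0.09 (Rpl19) and 0.23 (Rpl14), with a median of 0.06 beside 0.01 for the 39 without it. The 23 genes with a pyrimidine run at the start had a median of 0.03 and the 20 without it of 0.01. These medians are descriptions, with no test. Without the N-myc low array of mouse 2, the 4 CACGTG genes differed by -0.04 (Rpl13a), -0.0052 (Rps19), -0.01 (Rpl19) and 0.24 (Rpl14). The 5 shared probe sets of Rpl14 differed by -0.06 to -0.02.

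Other genes of the translation machinery whose mRNAs carry a terminal oligopyrimidine tract were close to 0 as well. Of 16 listed, 15 were measured, with a median difference of 0.0083, a range from -0.11 (Eif3e) to 0.13 (Eif3f) and 0 passing the test. The elongation factor Eef1a1 differed by 0.0083, and Naca, which binds nascent chains at the ribosome, by 0.13. Fau, the 1 gene measured of 5 ribosomal genes outside the symbol rule, encodes a small-subunit protein and differed by -0.07.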

How the data were processed

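Per the submitters' processing notes, the authors ran RMA, with affy and limma also named, and deposited log2 probe set intensities. RMA equalises the arrays' distributions, so no absolute RNA amount is held. The sources used here do not give the chip definition or genome build. Of 45101 probe sets, 34945 had 1 gene name. Groups were compared over all 18193 genes with limma 3.58.1 in R 4.3.3 (lmFit, eBayes), two-sided, with Benjamini-Hochberg adjustment at 0.05. Differences are N-myc high minus N-myc low. The labels pair the groups by mouse, but the main fit left the mouse out. It entered only as an alternative, the replicate block. No dim genes were removed. The code was tested on simulated data.

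The members and lists were chosen with earlier results of these data known. Genes were listed for naming by the smallest p-values in each direction and level class, extremes of level and spread, and nearness to 8. Paralogs, a few well-known members and the 3 smallest p-values of each other list were added. Not all of these genes are named above, and most of those from the marker lists are not. Further names were chosen after their values were seen. The labels name the mouse, which gives 2 pairs of arrays. Across all genes, deviations from the group mean correlated at r = 0.0492 between the N-myc high and N-myc low arrays of the same mouse. Alternatives covered probe set choice, dim genes, scaling, variance prior, the replicate block, left-out arrays and the level limit. RefSeq has 8 further protein-coding symbols of this family that were not analysed here.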

Additional observations from a re-analysis of the deposited data

How the results depend on the processing

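Under each of 13 other settings, 0 ribosomal protein genes and 0 of all genes passed the adjusted limma threshold, with a lowest adjusted p of 0.573 for a member and 0.540 for any gene. The median difference of members with a mean of 8 or more was 0.0149; it was 0.0373 with the median probe set per gene, and between -0.0056 and 0.0491 when 1 array was left out. Over all members that range was -0.0052 to 0.0382, and for those below 8 it was -0.1044 to 0.0113. With the replicate block the median stayed at 0.0149 and the count at 0, and no other call changed. Single differences did not all hold their sign: 40 of 49 members changed sign under 1 setting or more, 75 of 629 values in all. Centring on bright genes turned the sign of 1 of the 42 genes and quantile normalisation once more that of 3. Unadjusted p-values under 0.05 came up for 5 members in 1 setting each, Rps18, Rps25, Rps10, Rps4l (0.0159, without N-myc high of mouse 1) and Rps6 (0.0381, without N-myc low of mouse 1). Detection calls were not used, so levels below 8 have no measured background beside them.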

Other observations

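Mitochondrial ribosomal proteins, which build the separate ribosomes inside mitochondria, differed in their values from the cytosolic ones. The 76 measured genes were at a median of -0.11 between the fractions (mouse 1: -0.18, mouse 2: -0.03). Their median level was 8.93, against 13.10 for the cytosolic genes, and the part of level in this contrast was not tested. In both mice 33 (43.4%) were lower and 10 (13.2%) higher in N-myc high, beside 29.7% and 23.2% of all genes. Among all genes with a mean of 8 or more, 27.0% were lower and 28.1% higher in both mice. None of the 76 passed the adjusted limma threshold. At an unadjusted limma p under 0.05, 6 were lower and 0 higher. Of all genes 2.78% were lower and 3.53% higher, and of those with a mean of 8 or more 2.35% and 2.84%. Mrpl11 gave 10.63 and 10.92 in N-myc high, against 11.95 and 11.50 in N-myc low. Both N-myc high arrays were below both N-myc low arrays, by 0.95 on the log2 scale, and so they were for Mrpl37 and Mrps25, which fell short of the adjusted threshold with differences of -0.92 and -0.93. Both N-myc high arrays were below both N-myc low arrays for 19 of the 76 genes and above them for 6 (7.89%). The shares were 20.8% and 15.6% of all genes, and 18.7% and 18.8% of those with a mean of 8 or more.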
